A study of Mus musculus with 8 samples.

Results

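The muscle nicotinic acetylcholine receptor was followed through its 5 subunit genes, Chrna1, Chrnb1, Chrnd, Chrne and Chrng, in C2C12 cells that carried an HDAC4 retrovirus or a control retrovirus. Members were chosen by gene symbol. They are 5 of the 14510 genes named on the array and had 6 of its 31769 probes, since Chrne had 2 probes and each of the others had 1. C2C12 is an established line of mouse myoblasts, which leave the cell cycle and form myotubes in low serum. The HDAC4 group held 4 samples of cells stably selected with a retrovirus that encodes HDAC4 and the Neo resistance marker. The Neo group held 4 samples selected with the retrovirus that carries Neo alone. RNA was taken from both groups after 4 days in 2% horse serum, begun at 90% confluence. Neither the promoter that drives HDAC4 nor whether the lines were clones or pools is given in the sources used here. The labels do not state whether replicates were separate cultures. The p-values therefore cover only the spread between the arrays, and that spread may be technical.

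The receptor at the neuromuscular junction is a pentamer that opens on binding acetylcholine and depolarises the muscle fibre. The fetal form holds alpha1, beta1, delta and gamma subunits, and in adult fibres the epsilon subunit takes the place of gamma at the synapse. In mouse and rat muscle, innervation silences the fetal gamma gene outside the synapse, and denervation brings it back. HDAC4 is a class IIa histone deacetylase that binds MEF2 factors. In denervated mouse muscle it acts through Dach2 and myogenin on the receptor genes.

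The regulatory sequences of the fetal and the adult subunit are shown because the contrast between these 2 genes was the one that turned most on which arrays were kept. They are RefSeq promoters of assembly GRCm38.p6, from 250 bases before to 50 bases after the gene's start, and capitals mark E-boxes (CANNTG, the site of MyoD-family factors) and the N-box core (CCGGAA, the site of GABP and other ETS factors). The Chrng window lies on the plus strand at chr1:87205561-87205860 and the Chrne window on the minus strand at chr11:70619145-70619444.
Chrng: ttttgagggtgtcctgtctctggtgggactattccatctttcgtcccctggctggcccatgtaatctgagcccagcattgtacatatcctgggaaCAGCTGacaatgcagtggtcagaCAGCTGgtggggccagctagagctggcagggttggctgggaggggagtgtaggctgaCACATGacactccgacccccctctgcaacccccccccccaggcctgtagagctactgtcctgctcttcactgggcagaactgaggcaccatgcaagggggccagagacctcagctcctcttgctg
Chrne: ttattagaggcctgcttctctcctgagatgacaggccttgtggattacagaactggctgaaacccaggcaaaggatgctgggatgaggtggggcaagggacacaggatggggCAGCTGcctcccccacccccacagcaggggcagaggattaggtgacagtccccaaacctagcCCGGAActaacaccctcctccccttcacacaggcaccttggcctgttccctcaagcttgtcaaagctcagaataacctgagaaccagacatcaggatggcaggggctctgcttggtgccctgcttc
The Chrng window held 3 matches to CANNTG and none to CCGGAA, while the Chrne window held 1 match to each. Windows were also found for Chrna1 (chr2:73580289-73580588, minus strand) and Chrnb1 (chr11:69795888-69796187, minus strand), with 3 CANNTG matches each and no N-box core. Both strands were searched, and of the 32851 promoters in RefSeq's set, 72.3% held an E-box and 14.9% an N-box core. The E-box form CAGCTG, which is 1 of the CANNTG sequences, occurred in 2 copies for Chrng, 2 for Chrna1, 1 for Chrne and 0 for Chrnb1, and in 16.3% of all promoters. A MEF2 element was matched in none of these 4 windows and in 3.19% of all promoters. In the same assembly Chrnd and Chrng are neighbouring genes on chromosome 1.

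Each array gave 1 deposited log2 ratio per probe, read as cells over a murine reference RNA. This direction is likely and not stated: the labels give only the dyes, and the basis is that 14 markers of differentiated muscle averaged 7.40 to 7.52 on the log2 scale on HDAC4 arrays and 7.56 to 7.81 on Neo arrays. The mean of these markers was lower on every HDAC4 array than on any Neo array, beside all of the subunit results. The nearest HDAC4 and Neo means were 7.52 and 7.56. In bulk samples, fewer cells of a type and less RNA per cell cannot be told apart. No probe was named Hdac4, so the group labels could not be checked against the transgene. The arrays held 17014 to 18521 values in the HDAC4 group and 19248 to 22193 in the Neo group. Both arrays numbered 1 stood apart from the others. They correlated at 0.945 with each other and at 0.893 to 0.910 with the remaining arrays, which correlated at 0.936 to 0.977 among themselves. Subunit results are therefore given with and without both. Ratios of many probes were whole multiples of 0.1, as a reference signal fixed at 10 units would give, and at this floor the ratio carries the signal of the cells alone. That floor is inferred from the values, and it could not be read at ratios of 100 or more, where the 4 significant digits that the values carry make every ratio whole. The 14 muscle markers include values at the floor and ratios of 100 or more, and their part in the marker means was not tested.

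Chrng, the fetal gamma subunit, had the higher mean in HDAC4 cells. Its deposited ratios on replicates 1 to 4 were 133.3, 161, 217.3 and 201.6 in HDAC4 cells, against 106.1, 133.9, 94.63 and 103 in Neo cells. The groups overlapped only where Neo replicate 2 lay just above HDAC4 replicate 1. On the log2 scale Chrng averaged 7.44 ± 0.31 in HDAC4 cells and 6.75 ± 0.22 in Neo cells (SD, n = 4 each). The change of 0.69 (SE 0.18, 95% interval 0.27 to 1.10), a 1.61-fold higher mean, had an unadjusted limma p of 0.00427 and an adjusted p of 0.338 over all 14750 features. The exact two-sided permutation p was 0.0571, where 4 against 4 arrays allow 0.0286 at the lowest. Within same-numbered pairs the HDAC4 array was higher in each of 4 pairs, by 0.34, 0.26, 1.19 and 0.97. With both arrays numbered 1 left out the change was 0.81 (SE 0.17), 1.75-fold, with an adjusted p of 0.0686. The value on Neo replicate 3 was not at the reference floor, and for the other 7 the floor could not be read. If those ratios of 100 or more were shifted with the floor values, a setting chosen after seeing the data, the change was 1.15, with an adjusted limma p of 0.0237.

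Chrne, the adult epsilon subunit, was the member whose result depended on a single array. The ratios of probe M200002071 were 4.5, 4.9, 5.9 and 4.3 in HDAC4 cells, against 1.7, 16, 18.6 and 19.6 in Neo cells. Those of probe M300001318 were 7, 8.2 and 5.9 on HDAC4 replicates 2 to 4, with no value on HDAC4 replicate 1, against 1.1, 20, 29 and 15 on Neo replicates 1 to 4. Both probes placed Neo replicate 1 below every HDAC4 array with a value and the other 3 Neo arrays above every such array. For M300001318 these were HDAC4 replicates 2 to 4, so the gene value on HDAC4 replicate 1 rests on M200002071 alone. Neo replicate 1 was 14.1-fold below the mean of the other 3 Neo arrays, when each array's value was the mean of its probes. On probe M200002071, which has a value on every array, replicate 1 was 10.6-fold below the mean of replicates 2 to 4 in Neo cells and 1.10-fold below it in HDAC4 cells. The 2 probes had a Pearson r of 0.952 over the 7 arrays that both measured, and these points share their arrays.

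Over all 8 arrays the gene value of Chrne, the mean of its probes, averaged 2.45 ± 0.27 in HDAC4 cells and 3.30 ± 1.92 in Neo cells (SD, n = 4 each). The change was −0.85 (SE 0.78, 95% interval −2.59 to 0.89), with an adjusted p of 0.890 in limma and an exact two-sided permutation p of 0.486. Within same-numbered pairs, probe M200002071 had a change of 1.41 for number 1 and of −1.71, −1.67 and −2.18 for numbers 2, 3 and 4. Probe M300001318 had no value for pair 1 and changes of −1.52, −1.84 and −1.34 for the other pairs. Without both arrays numbered 1, Chrne fell in HDAC4 cells, with 2.54 ± 0.23 in HDAC4 and 4.25 ± 0.24 in Neo (SD, n = 3 each). That change was −1.71 (SE 0.17, 95% interval −2.11 to −1.31), 3.27-fold lower in HDAC4, with an adjusted limma p of 0.00645 and an exact p of 0.1, the lowest that 3 against 3 arrays allow. Each probe passed there on its own, at 3.62-fold lower for M200002071 (adjusted limma p 0.00379) and 2.96-fold lower for M300001318 (adjusted limma p 0.0290). With Neo replicate 1 alone left out, the change was −1.81, with an adjusted limma p of 0.0124. With number 1 against the others as a batch term, the change over all 8 arrays had an adjusted limma p of 0.528.

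All 15 values of the Chrne probes were at the inferred floor of the reference. As a group, the 161 probes with only floor values were mostly lower in HDAC4, 93.8% of them with a median change of −0.57 over the 161, while all features had a median of −0.0028 with 50.5% lower. This offset was uneven over the arrays. The median deviation of floor probes outside the gene lists was −0.60, −0.37, −0.04 and −0.05 on HDAC4 replicates 1 to 4. On Neo replicates 1 to 4 it was −0.03, 0.48, 0.53 and 0.34. Neo replicate 1 thus lay near HDAC4 replicates 3 and 4, apart from the other Neo arrays. On the 6 arrays numbered 2 to 4, 9 of the 150 floor probes that belonged to none of the gene lists, or 6%, had a change of −1.71 or lower. With floor values shifted so that the floor probes of each array had the same centre, the change of Chrne without both arrays numbered 1 was −1.10, with an adjusted limma p of 0.0323. With the same shift over all 8 arrays it was −0.25. The floor probes that set the shift include muscle genes such as Myoz1, Csrp3, Trdn, Ldb3 and Xirp1. The shift therefore also removes any change in expression that such genes share. Whether the lower floor values in HDAC4 were technical was not tested.

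**Figure D1:**
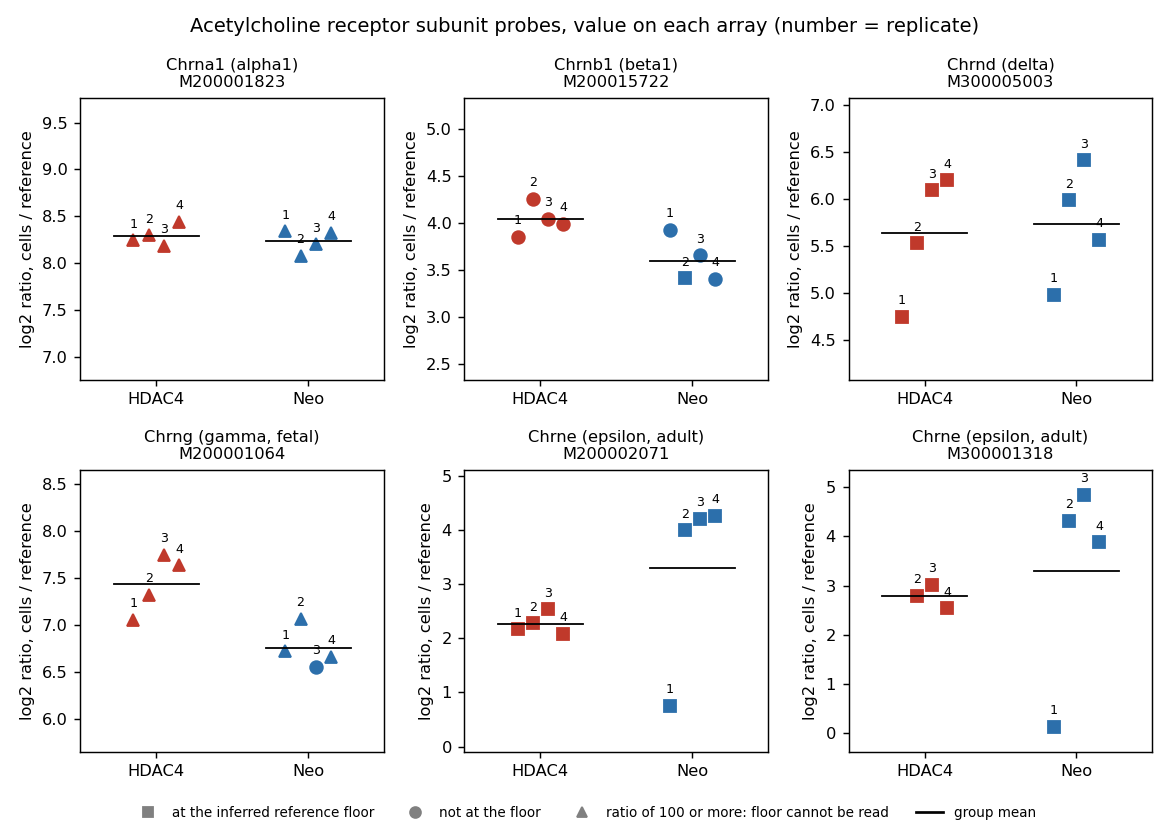
Log2 ratio of cells over reference for each of the 6 subunit probes (vertical axis) on the 4 HDAC4 and 4 Neo arrays (horizontal axis), with the replicate number beside each point and a bar at the group mean. Marker shape gives the state of the reference signal: both Chrne probes have Neo replicate 1 at the bottom and the other 3 Neo arrays at the top, and Chrng has most HDAC4 arrays above the Neo arrays.

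Chrna1, which carries the main part of the acetylcholine binding site, differed little between groups in the deposited values. Its ratios were 304.9, 317.3, 295.4 and 354 in HDAC4 cells, against 327.3, 271.7, 296.5 and 327.3 in Neo cells. The groups overlapped over most of their range, and the change was 0.06 on the log2 scale (SE 0.12, 95% interval −0.22 to 0.33; adjusted limma p 0.961). Without both arrays numbered 1 the change was 0.11 (adjusted limma p 0.670). All 8 ratios exceeded 100, so the floor could not be read for Chrna1. If they were shifted with the floor values, the change was 0.65, with an adjusted limma p of 0.564.

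Chrnb1, the beta1 subunit, which is phosphorylated when agrin clusters the receptor, had ratios of 14.58, 19.33, 16.82 and 16.22 in HDAC4 cells, against 15.38, 10.7, 12.73 and 10.84 in Neo cells. Only Neo replicate 1 reached into the HDAC4 range. The means were 4.04 ± 0.17 in HDAC4 cells and 3.60 ± 0.25 in Neo cells on the log2 scale (SD, n = 4 each), a change of 0.44 (SE 0.16, 95% interval 0.08 to 0.79). The unadjusted limma p was 0.0210, the adjusted p 0.581 and the exact permutation p 0.0571. On the 6 arrays numbered 2 to 4 the change was 0.61 (SE 0.12), 1.52-fold, with an adjusted limma p of 0.0588. Of its 8 values 1 met the tolerance for the floor.

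Chrnd, the delta subunit, had ratios of 26.9, 46.6, 69.4 and 74.7 in HDAC4 cells, against 31.9, 63.7, 85.7 and 48.3 in Neo cells. The groups overlapped, and replicate 1 was the lowest array of both, by 1.20 in HDAC4 and 1.01 in Neo on the log2 scale against the mean of replicates 2 to 4. Its change was −0.10 (SE 0.37, 95% interval −0.94 to 0.74; adjusted limma p 0.977), an interval wide enough to hold the estimates for Chrng and Chrne. Without both arrays numbered 1 the change was −0.05 (adjusted limma p 0.944). All 8 Chrnd values were at the floor, and with floor values shifted its change was 0.50. The 22 floor probes within 1 log2 unit of its level had a median change of −0.66 and were all lower in HDAC4.

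Across the 5 subunits, 3 had a higher and 2 a lower mean in HDAC4 cells, and none passed at an adjusted p of 0.05 in limma, where 0.115% of all features did. At an unadjusted p under 0.05 there were 2 of 5, Chrng and Chrnb1, both higher in HDAC4, beside 7.34% of all features. With both arrays numbered 1 left out, 1 of 5 passed, Chrne, beside 2.23% of 13668 features, or 1.51% in its direction. None of the 5 passed with number 1 as a batch term, beside 0.624% of features, or with the pairs as a replicate block, beside 0.061%. No subunit had groups without overlap over all 8 arrays, beside 5.32% of features. On the 6 arrays numbered 2 to 4, 3 of 5 had none, Chrne, Chrng and Chrnb1, beside 26.3% of features.

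**Figure D2:**
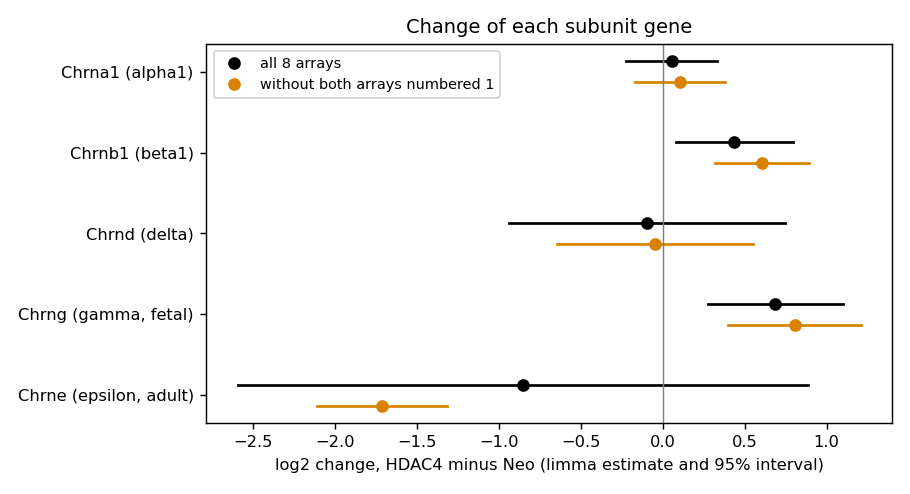
Log2 change, HDAC4 minus Neo, for each subunit gene (horizontal axis), with the limma estimate as a point and its 95% interval as a line, over all 8 arrays (black) and without both arrays numbered 1 (orange). The interval of Chrne runs from −2.59 to 0.89 over all 8 arrays and from −2.11 to −1.31 without the pair, while that of Chrna1 holds 0 in both.

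The balance of the fetal against each other subunit was compared as the difference of 2 log2 ratios within an array, which removes a shift shared by both probes but not one of floor values where a single probe of the 2 is at the floor. Only the difference between groups can be read, because levels of different probes are not comparable. Chrng minus Chrne was 4.89, 4.78, 4.97 and 5.32 in HDAC4 cells, against 6.28, 2.90, 2.03 and 2.59 in Neo cells. The HDAC4 arrays lay close together, above Neo replicates 2 to 4 and below Neo replicate 1. The means were 4.99 ± 0.23 in HDAC4 and 3.45 ± 1.92 in Neo (SD, n = 4 each), a difference of 1.54 with an exact two-sided permutation p of 0.143, or 0.190 adjusted over the 4 pairs compared. On the 6 arrays numbered 2 to 4 it was 5.02 ± 0.28 in HDAC4 and 2.51 ± 0.44 in Neo (SD, n = 3 each), a difference of 2.52 or 5.72-fold, with an exact p of 0.1, the lowest possible. With Neo replicate 1 alone left out the difference was 2.48, with an exact p of 0.0286, unadjusted and the lowest that 4 against 3 arrays allow. With floor values shifted the difference was 0.94 over all 8 arrays (exact p 0.314) and 1.91 on the 6 arrays (exact p 0.1, the lowest possible). With ratios of 100 or more shifted too, it was 1.41 over all 8 arrays (exact p 0.143) and 2.34 on the 6 arrays (exact p 0.1).

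Chrng was also set against the 3 subunits that both receptor forms share. Chrng minus Chrna1 was 0.63 higher in HDAC4, at −0.86 ± 0.32 in HDAC4 and −1.49 ± 0.31 in Neo (SD, n = 4 each), with an exact permutation p of 0.0571 and an adjusted p of 0.171. With ratios of 100 or more shifted with the floor values, it was 0.50 (exact p 0.114). Chrng minus Chrnd was 0.78 higher in HDAC4, at 1.79 ± 0.37 in HDAC4 and 1.01 ± 0.65 in Neo (SD, n = 4 each; exact p 0.0857, adjusted 0.171). All Chrnd values are at the floor, and with floor values shifted this difference was 0.18 (exact p 0.657). For 7 of the Chrng values the floor could not be read, and with ratios of 100 or more shifted too it was 0.65 (exact p 0.0857). Chrng minus Chrnb1 was 0.25 higher in HDAC4 (exact p 0.371, adjusted 0.371), and 0.13 with floor values shifted or 0.60 with ratios of 100 or more shifted too. None of the 4 balances passed at 0.05 over all 8 arrays. Without both arrays numbered 1, Chrng minus Chrna1 was 0.70 and Chrng minus Chrnd 0.85 higher in HDAC4 (exact permutation p 0.1 each, the lowest possible). Chrng minus Chrnb1 was 0.20 higher there (exact permutation p 0.6).

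**Figure D3:**
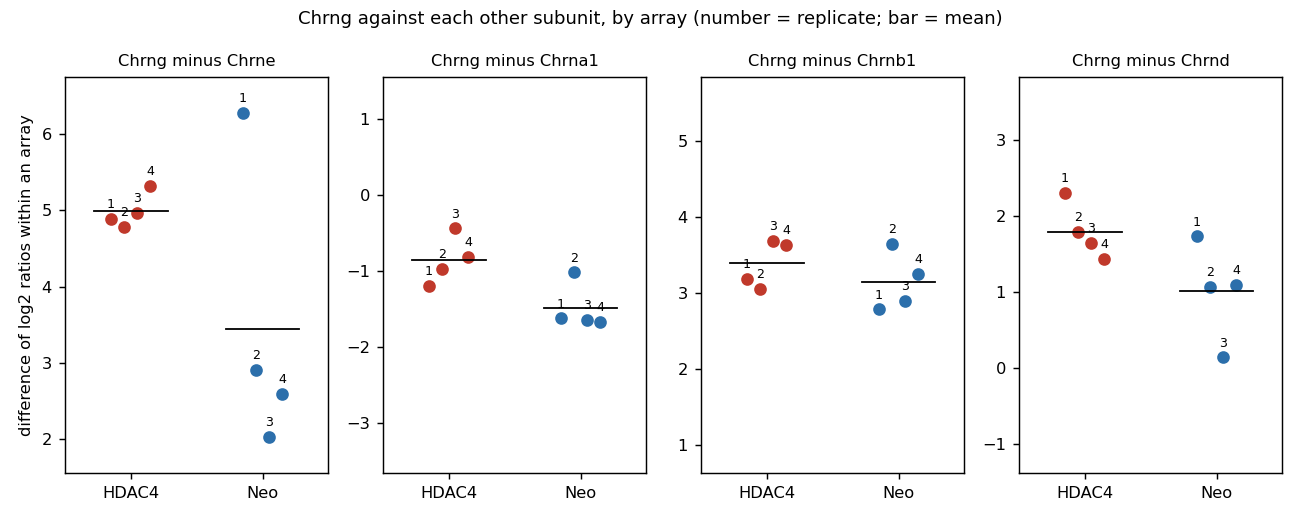
Difference of log2 ratios within an array (vertical axis) between Chrng and each other subunit on the 4 HDAC4 and 4 Neo arrays, with the replicate number beside each point and a bar at the group mean. In the Chrne panel the HDAC4 arrays lie between 4.78 and 5.32, Neo replicate 1 is at 6.28, and the other Neo arrays lie between 2.03 and 2.90.

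**Figure D4:**
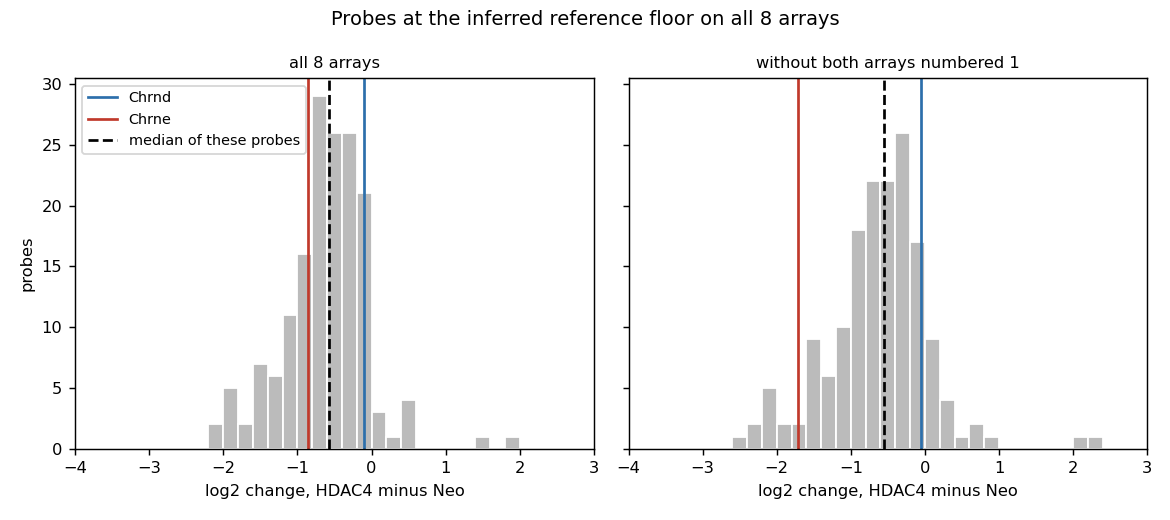
Number of probes (vertical axis) by log2 change, HDAC4 minus Neo (horizontal axis), among the 161 probes at the inferred reference floor on all 8 arrays, over all 8 arrays (left) and without both arrays numbered 1 (right). The dashed line is the median of these probes, at −0.57 and −0.55, the red line is the gene value of Chrne, at −0.85 and −1.71, and the blue line is Chrnd, at −0.10 and −0.05.

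Genes around the receptor were followed in lists. Of the nicotinic subunits of neuronal type, 10 had a probe, 7 had a value on any array and none had enough values to be tested. Of the factors that fold and assemble the receptor, 7 were tested and all 7 had a higher mean in HDAC4, with a median of 0.10 and none passing. They included Ergic3, a protein of the early secretory pathway, at 0.23, the chaperone calreticulin (Calr) at 0.15, Rer1, which retains unassembled subunits in the early secretory pathway, at 0.10, and Emc3, of the membrane insertion complex of the endoplasmic reticulum, at 0.08. Of 21 tested genes that cluster or anchor the receptor, 12 had a higher and 9 a lower mean, with a median of 0.08 and none passing. Rapsn, the scaffold that binds the receptor, had a change of 0.21 (SE 0.17), Musk, the kinase that starts clustering, 0.09 (SE 0.41), and Lrp4, the agrin receptor, 0.20 (SE 0.29). With floor values shifted these were 0.34, 0.69 and 0.54. Musk passed when both arrays numbered 1 were left out as well (0.62, adjusted limma p 0.0334), beside 247 of 13668 features. All 8 Musk values were at the floor. Without both arrays numbered 1 and without the shift, the change of Musk was 0.01 (adjusted limma p 0.983). The smallest p values of that list belonged to Apc, at 0.37 (adjusted limma p 0.685), and Sntb1, a syntrophin of the dystrophin complex, at −0.49 (adjusted limma p 0.724, all 8 values at the floor, and 0.11 with floor values shifted). Next were Crkl, an adaptor that binds Dok7, at 0.35 and cortactin (Cttn), an actin regulator, at 0.23. Ache, the enzyme that breaks down acetylcholine, was the one tested gene of the cleft list, at −0.86 (SE 0.42, adjusted limma p 0.741) with 3 HDAC4 and 4 Neo values, all at the floor, and −0.38 with floor values shifted.

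Among the 7 tested genes of the neuregulin pathway, which drives receptor genes under the synapse through the N-box, 5 had a higher and 2 a lower mean and none passed. Gabpb1, a subunit of the N-box factor GABP, had a change of 0.09, the kinase Mapk8 0.23 and Erbin, which binds the neuregulin receptor ErbB2, −0.17. Etv5, another ETS factor, averaged −1.48 ± 0.18 in HDAC4 cells and −0.999 ± 0.06 in Neo cells (SD, n = 4 each), a change of −0.48 (adjusted limma p 0.339). Etv5 fell, when both arrays numbered 1 were left out, by 0.59 on the log2 scale, with an adjusted limma p of 0.0294, beside 2.23% of all features called there.

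Of 16 tested regulators of myogenic transcription, 5 had a higher and 11 a lower mean in HDAC4, with a median of −0.22 beside −0.0028 for all features, and none passed. Myog, which binds E-boxes of the subunit promoters, averaged 8.19 ± 0.29 in HDAC4 and 7.997 ± 0.43 in Neo (SD, n = 4 each), a change of 0.19 (SE 0.23), or 0.79 (adjusted limma p 0.700) if its ratios of 100 or more were shifted with the floor values. Myf6, the E-box factor of late differentiation, averaged 2.81 ± 0.34 in HDAC4 and 3.69 ± 0.26 in Neo (SD, n = 4 each), a change of −0.88 (adjusted limma p 0.223), all 8 values being at the floor, and −0.28 with floor values shifted. Id1, an inhibitor of E-box factors, had a change of −0.70 (adjusted limma p 0.237), and Mef2a, a partner of HDAC4, one of 1.15 (adjusted limma p 0.581). Hdac5, a class IIa relative of HDAC4, had a change of −0.29 (adjusted limma p 0.700). With number 1 as a batch term Id1, Mef2a and Myf6 passed (adjusted limma p 0.0256, 0.0283 and 0.0495), beside 0.624% of all features. On the 6 arrays numbered 2 to 4, Id1 fell by 0.78 (adjusted limma p 0.0121) and Mef2a rose by 1.07 (adjusted limma p 0.0452), the 2 genes of the list that passed there beside 2.23% of all features. Mef2a no longer passed with floor values shifted too (1.07, adjusted limma p 0.0500262). None of its own values were at the floor, so the shift reached its p only through other features.

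Denervation raises the fetal subunit in mouse muscle together with other genes, of which 10 were tested. Of these, 9 had a higher and 1 a lower mean in HDAC4, with a median of 0.18 and none passing. The list holds Chrng, Chrna1 and Chrnd themselves. Cdkn1a, a cell cycle inhibitor, had a change of 0.21 and Runx1, a transcription factor of denervated muscle, one of 0.38 (adjusted limma p 0.862). Without both arrays numbered 1, Runx1 rose by 0.53 (adjusted limma p 0.0458), the single call of the list beside 2.23% of all features, and it missed with floor values shifted too (adjusted limma p 0.0511). Runx1 had no value at the floor either, so the shift reached its p only through other features.

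Chrne and Chrng are 1 of several pairs of developmental and adult isoforms in muscle. Of 8 tested genes of such pairs, both subunits included, 2 had a higher and 6 a lower mean, with a median of −0.28 and none passing. Myh2, an adult fast myosin heavy chain, averaged 4.79 ± 0.36 in HDAC4 and 6.21 ± 0.38 in Neo (SD, n = 4 each), a change of −1.42 (SE 0.23, adjusted limma p 0.0794), and it passed with the replicate block (adjusted limma p 0.0379). Tnnt3 and Tnni2, fast troponins, had changes of −0.99 and −0.22, or −0.39 and 0.38 when ratios of 100 or more were shifted with the floor values, and −0.18 for Tnnt3 on probes without a floor value. Without both arrays numbered 1, 3 of the list passed beside 2.23% of all features, or 1.51% in that direction, all lower in HDAC4: Myh2 at −1.46 (adjusted limma p 0.00578), Chrne at −1.71 and Actc1, the cardiac actin of developing muscle, at −0.59 (adjusted limma p 0.0422). Over all 8 arrays Actc1 was at −0.35, and at 0.25 when ratios of 100 or more were shifted. It belongs to the developmental side, so the 3 calls fall on both sides of the pairs. The 4 Myh2 probes had 17 values at the floor. With floor values shifted, Myh2 was at −1.05 over all 8 arrays (adjusted limma p 0.251). With ratios of 100 or more shifted too, Myh2 was at −0.82 (adjusted limma p 0.276). When floor values were shifted and both arrays numbered 1 were left out, Myh2 passed at −1.16 (adjusted limma p 0.0300).

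**Figure D5:**
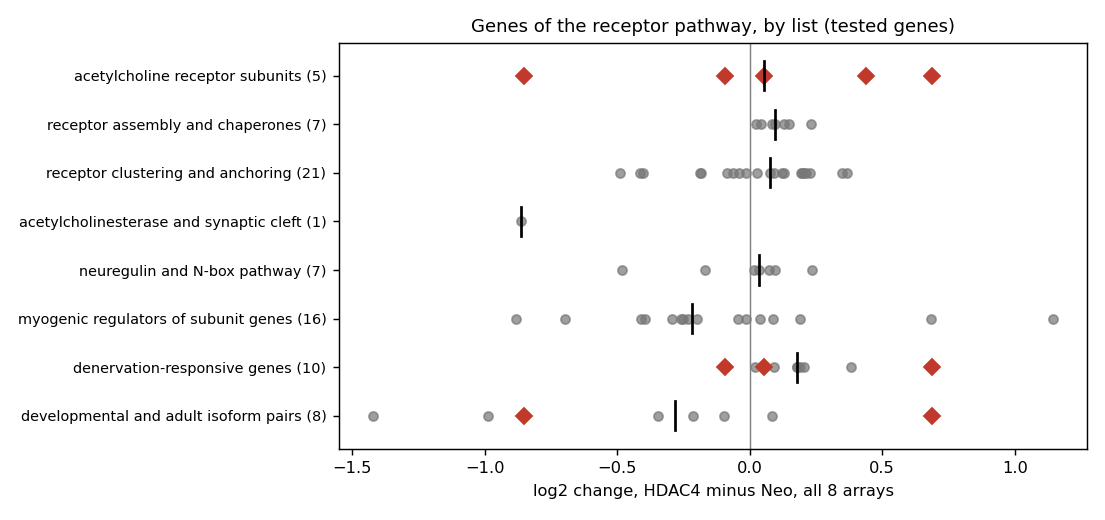
Log2 change, HDAC4 minus Neo, over all 8 arrays (horizontal axis) for each tested gene of 8 lists around the receptor, with the number tested in brackets, a black bar at the median and red diamonds for subunit genes. Medians lie between −0.28 and 0.18 apart from the list with Ache alone, and no gene of these lists passed.

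Markers of other states of the cells were read on the same arrays. Of 15 tested markers of differentiated muscle, 4 had a higher and 11 a lower mean in HDAC4, with a median of −0.22, and the sum of the 14 on all arrays was 103.6 to 105.3 in HDAC4 and 105.8 to 109.4 in Neo. Among all features, 5.32% had groups of 4 without overlap. The 14 include Ttn, Cacna1s and Ryr1, with 41, 20 and 10 floor values over their probes, and floor probes were mostly lower in HDAC4. The part of floor values in these sums was not tested. Of 12 tested markers of proliferating myoblasts, 9 had a higher and 3 a lower mean, with sums over 11 genes of −36.9 to −27.8 in HDAC4 and −40.1 to −32.6 in Neo. None of either list passed over all 8 arrays, and Actc1 was the 1 call among the differentiated markers without both arrays numbered 1, beside 2.23% of all features. Of 7 tested fibroblast-type markers, 4 had a higher and 3 a lower mean and none passed. Without both arrays numbered 1, 6 of them were tested, 3 with a higher and 3 with a lower mean. Postn, a matrix protein, fell there by 1.02 (adjusted limma p 0.0238), the 1 call of the list beside 2.23% of all features. Of the markers of neurons and Schwann cells 2 could be tested and of those of liver 1, and none passed. The part of these markers in the subunit values was not tested.

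The genes whose log2 ratios ran most like a subunit over the 8 arrays were taken from 7933 genes with values on all of them, as a description without a test. For Chrng the highest Pearson r were 0.96 for Borcs6, 0.95 for Htra3 and 0.94 for Mark4. Those for Chrna1 were 0.94 for Psmc4 and 0.89 for Aifm2 and Gatc. For Chrne, added after its values were seen, they were 0.99 for Htra1 and 0.98 for Zfhx3 and Ramp2. Chrne was at 0.44 on Neo replicate 1 and at 2.16 to 4.53 on the other arrays, so that single array weighs heavily in these r. Among the subunits themselves Chrnb1 and Chrng had an r of 0.61, Chrnd and Chrne 0.63, and Chrnb1 and Chrne −0.64. All of these points share the 8 arrays.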

How the data were processed

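RNA of 8 samples, 4 HDAC4 and 4 Neo, was labelled with Cy5 beside a Cy3 reference on 2-colour arrays, per the labels' protocols, which name murine liver as its source. Of 10 liver markers with a probe, 7 had a value on any array, with Neo means from −0.99 for Hp to 0.90 for Serpina1a. Ahsg, Apoa1, Serpina1a and Ttr had values at the inferred reference floor. Whether the reference was liver RNA was not tested. The values deposited are log2 ratios, 1 for each probe on an array; how the authors corrected background and normalized is not stated in the labels. Columns were centred on their medians. Probes naming 1 gene (18976) were averaged per gene, with symbols updated through RefSeq. Features needed 3 values in each group, which left 14750. Groups were compared with limma 3.58.1 in R 4.3.3 (lmFit, eBayes), with Benjamini-Hochberg adjustment at 0.05, checked on simulated data, and single values with exact two-sided permutation tests. The simulated noise was independent between values, with no deviation shared by an array and no floor shift, so the check does not cover these. The number of arrays limits precision. Members and lists were chosen with earlier results of these data known. The text names all 5 members and, from each list on the receptor pathway, the 4 genes with the smallest p; Rapsn, Musk, Lrp4, Actc1 and Postn were added after their values were seen. Same-numbered arrays deviated together (correlations 0.522, 0.300, 0.188 and 0.112). Among numbers 2 to 4, arrays of unlike number did so too, at 0.067 to 0.251. HDAC4 replicates 3 and 4 correlated more with Neo replicate 2 (0.213 and 0.251) than with their own number. These values therefore do not settle whether numbers 2 to 4 are pairs. The main fits and permutation tests were unpaired, and pairs were used only for the within-pair changes and the replicate block. Alternatives covered centring, quantile scaling, filters, the pair block, the number 1 arrays, single arrays left out and the floor.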

Additional observations from a re-analysis of the deposited data

Results flagged for a closer look

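Of 21 groups of 4 arrays examined, 3 had an array far from the other 3, and chance flags about 1 in 20 such groups. The groups are not independent, since the Chrne gene value is the mean of its probes and the balances reuse the gene values. The count of flags therefore cannot be set against that rate. The gap of Neo replicate 1 to the nearest other Neo array took 0.888 of the group's whole range for Chrne, and 0.923 for its probe M200002071. For the balance of Chrng minus Chrna1, Neo replicate 2 stood apart, with a gap of 0.934 of the range.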

How the results depend on the processing

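The 17 features that passed over all 8 arrays became 9 with the replicate block (7 of them shared), 92 with the number 1 arrays as a batch term (17 shared) and 305 without both arrays numbered 1 (15 shared). Leaving out 1 array gave 0 to 65: 62, 3, 4 and 2 without HDAC4 replicates 1 to 4, and 65, 0, 0 and 0 without Neo replicates 1 to 4, where 838, 877 and 861 had an unadjusted limma p under 0.05 in the last 3. With floor values shifted it was 3, with the shift taken from floor probes of like level 3, with probes holding a floor value left out 0 (781 at an unadjusted limma p under 0.05), with values of 100 or more shifted too 4, and with the shift and without both arrays numbered 1 it was 247. The replicate block changed no subunit's call. Chrne passed at −1.71 without both arrays numbered 1 and at −1.10 with the shift as well, and ranged from −1.81 (without Neo replicate 1, adjusted limma p 0.0124) to −0.44 over single arrays left out. Chrng passed once, at 1.15 (adjusted limma p 0.0237), when ratios of 100 or more were treated as floor values, a setting chosen after seeing the data. Chrng minus Chrne ranged from 1.07 to 2.48 over single arrays left out, and its exact p was under 0.05 once, at 0.0286 (unadjusted) without Neo replicate 1. With floor values shifted it was 0.94, and with ratios of 100 or more shifted too it was 1.41. Chrnd changed sign to 0.11 with quantile scaling, 0.50 with the shift, with and without ratios of 100 or more, 0.58 with matching, and 0.56 with the shift without both arrays numbered 1, and ranged from −0.35 to 0.20 over single arrays left out. Chrna1 was 0.65 when ratios of 100 or more were shifted. Sntb1 turned to 0.11, 0.12, 0.11 and 0.39 under these floor settings and Tnni2 to 0.38 and Actc1 to 0.25 when ratios of 100 or more were shifted. Over single arrays left out Rer1 ranged from −0.012 (without HDAC4 replicate 1) to 0.15, Musk from −0.29 (without Neo replicate 1, and negative without HDAC4 replicates 3 and 4) to 0.39, and Gabpb1 from −0.023 (without Neo replicate 4, with −0.019 without HDAC4 replicate 1) to 0.20. With such probes left out, Chrnb1, Chrnd and Chrne gave no value. The causes were not tested beyond what each setting changes. The 4 arrays per group and a reference at its floor limit how small a change could be seen.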

Other observations

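Hdac9, a class IIa relative of HDAC4 that represses MEF2 targets in mouse muscle, was named by 3 probes and could not be tested. Its probe M300000597 had ratios of 1.6, 1.1, 1.2 and 1.4 in Neo cells, all at the inferred floor, and no value on any HDAC4 array. The gene was chosen after its values were seen, and the HDAC4 arrays held fewer values of any probe.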
